A study of Mus musculus with 52 samples.

Results

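The insulin-like growth factor (IGF) axis is followed here through 9 genes, of 49585 with a transcript in the deposited tables. The genes, chosen by name, are the ligands Igf1 and Igf2, the receptor Igf1r, and the binding proteins Igfbp2, Igfbp3, Igfbp4, Igfbp5, Igfbp6 and Igfbp7. IGF1 and IGF2 are secreted peptides that bind the receptor tyrosine kinase IGF1R and signal through insulin receptor substrates to PI3 kinase and AKT. The binding proteins are secreted, hold IGFs in plasma and tissue fluid, and set how much ligand reaches the receptor. IGFBP7 binds IGFs only weakly and is a product of endothelial cells (ECs) deposited in the vascular basement membrane, whereas choroid plexus epithelium is a known source of IGF2 and IGFBP2 in cerebrospinal fluid.

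The study asked whether beta-catenin signaling in ECs sets the difference between vessels with a blood-brain barrier (BBB) and the permeable vessels of the pituitary and choroid plexus. GFP-positive ECs and GFP-negative cells were sorted from cerebellum, anterior pituitary and posterior pituitary of adult male mice, and profiled by RNA-seq (24 libraries) and, for the GFP-positive cells, by ATAC-seq (12 libraries), which marks open chromatin. Cerebral cortex and choroid plexus were profiled with RiboTag (16 libraries), in which an HA-tagged ribosomal protein expressed in ECs lets their ribosomes be pulled down ("bound") from the tissue lysate ("input"). Each group held 2 libraries.

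The sorted WT mice carried Tie2-GFP only, and their beta-catenin stabilized counterparts carried Tie2-GFP, Pdgfb-CreER and BcatEx3fl, so that 4-hydroxytamoxifen given in the second postnatal week deleted exon 3 of one Ctnnb1 allele in ECs. WT sorted mice therefore lacked the CreER transgene as well as the floxed allele. The methods name 4-hydroxytamoxifen for the stabilized sorted mice alone. The effects of genotype, transgene and treatment cannot be told apart in the sorted cells. In the RiboTag mice both genotypes carried RiboTag and Pdgfb-CreER, and the stabilized ones BcatEx3fl in addition. Tie2-GFP marks ECs, Pdgfb-CreER acts in ECs, recombination was mosaic, and pituitaries were pooled from many mice and choroid plexi from a few, so that a library is an average over animals and over recombined and unrecombined ECs. One library, the second of stabilized anterior pituitary GFP-positive cells, is named for the anterior lobe in its title and for the posterior lobe in its tissue label, and was used by its title.

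Total estimated reads were 12157485 to 37529274 in sorted and 6409013 to 21399125 in RiboTag libraries. Because the deleted exon is a small part of the transcript, the Ctnnb1 level checks nothing; the beta-catenin targets Axin2 and Lef1 served instead. In posterior pituitary ECs Axin2 was at 0.356 and 0.405 TPM (the deposited transcript abundance, scaled by length and library size) in WT and at 26.7 and 28.1 TPM in stabilized libraries. Lef1 was at 0.258 and 6.04 TPM in the former and 55.7 and 35.2 TPM in the latter. Anterior pituitary ECs had 3.103 and 0.0474 TPM of Axin2 in WT and 8.97 and 29.6 TPM in stabilized libraries. All 10 endothelial markers were detected in every GFP-positive library, with summed levels of 1943 to 7252 TPM. Other cell types were present too. In WT posterior pituitary GFP-negative cells 3 pituicyte markers summed to 49.5 and 51.4 TPM and 10 hormone-cell markers to 54510.4 and 56651 TPM, hormone cells being those of the anterior and intermediate lobes. In WT cortex bound RNA 10 endothelial markers summed to 1385 and 554 TPM and 8 microglial markers to 3344 and 2339 TPM. One WT cerebellum GFP-positive library (replicate 1) held 65218 TPM of 5 erythrocyte genes.

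**Figure D1:**
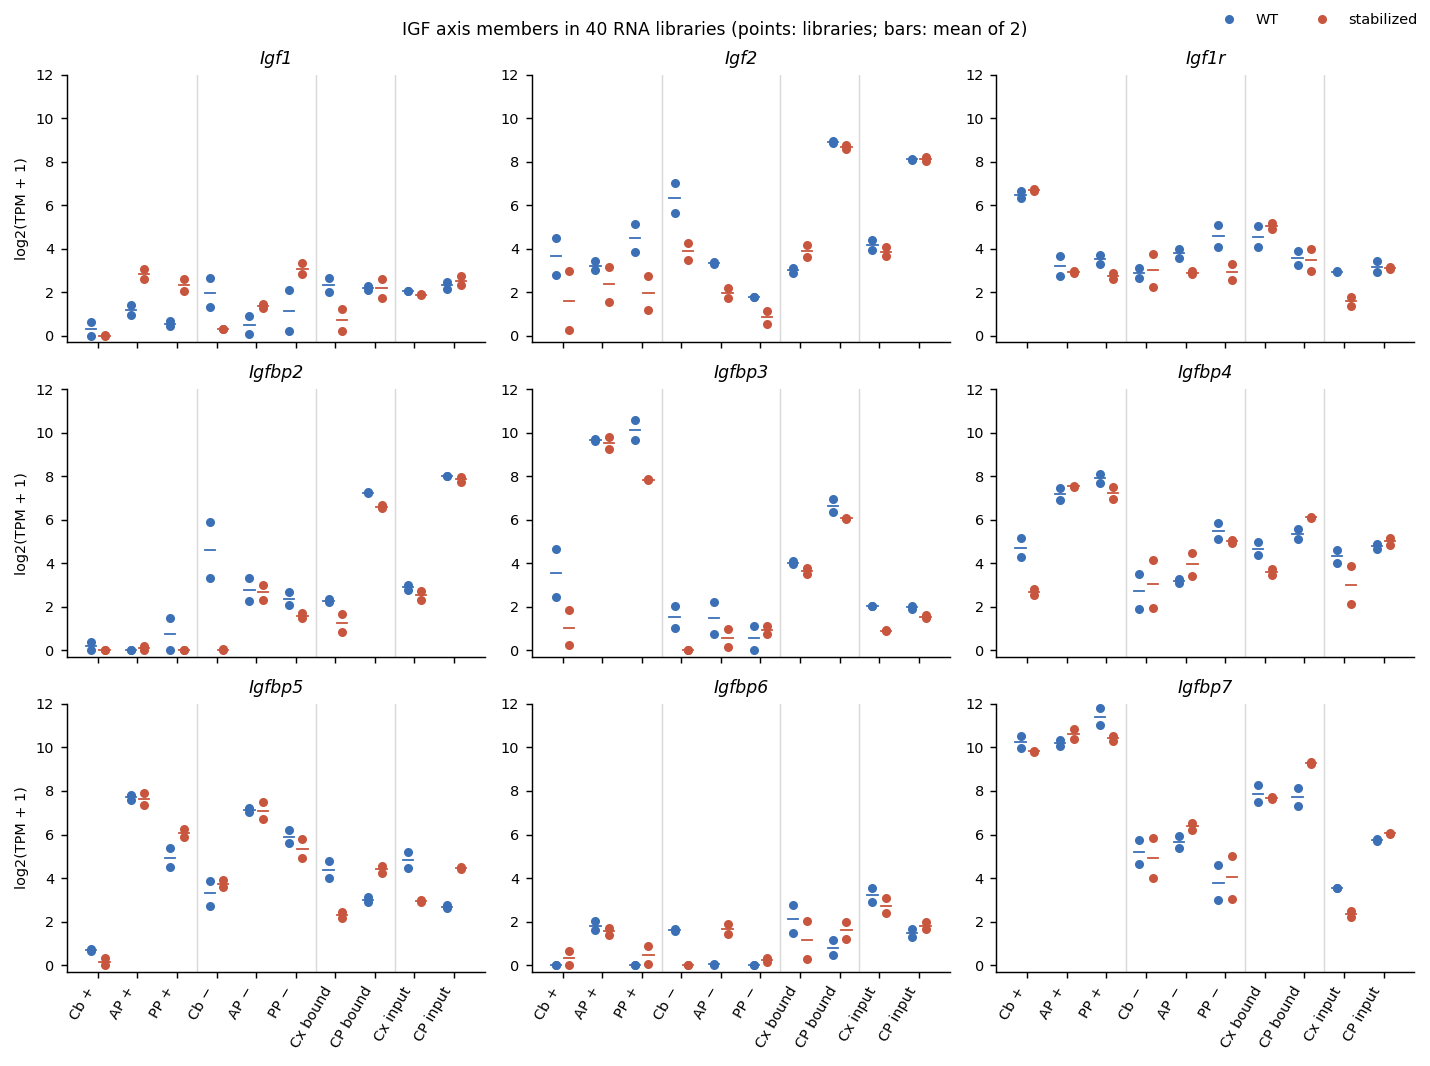
Level of each of the 9 genes in the 40 RNA libraries, as log2(TPM + 1); Cb, AP, PP, Cx and CP are cerebellum, anterior pituitary, posterior pituitary, cortex and choroid plexus, + and − are GFP-positive and GFP-negative cells, points are libraries (blue WT, red stabilized) and bars the mean of 2. Igfbp7 is at 899 TPM or more in all 12 GFP-positive libraries, Igfbp3 is high in pituitary and low in cerebellar ECs, Igf1r shows the reverse, and Igf2 and Igfbp2 peak in choroid plexus.

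In the plot of levels by library, TPM is the scale on which genes can be compared with each other. Binding protein transcripts outweighed those of ligands and receptor in ECs. Igfbp7 was the highest of the 9 genes in all 12 GFP-positive libraries and made up 49.3% to 91.1% of their summed TPM. In WT anterior pituitary ECs Igfbp7, Igfbp3, Igfbp5 and Igfbp4 were all above 100 TPM in both libraries, whereas in WT cerebellar ECs Igfbp7 stood alone above that level and Igf1r came next. The ligands reached at most 33.8 TPM (Igf2) and 7.38 TPM (Igf1) in GFP-positive libraries. Ranking the 20 groups by mean TPM gives 19 pairs of neighbours. The 2-library ranges did not overlap in 8 pairs for Igfbp7, 6 each for Igfbp2, Igfbp3, Igfbp5 and Igf2 and 4 for Igfbp4. For Igf1r they were separate in 3 pairs, for Igf1 in 2 and for Igfbp6 in 1. In the remaining pairs they overlapped. The share of separate pairs over all genes was not counted, so these counts show only how far the order can be read.

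Differences were tested with edgeR's quasi-likelihood test on estimated counts over all genes, and a gene was called at a Benjamini-Hochberg adjusted p under 0.05 and a change of at least 2-fold; beside each count of called members the percentage of all tested genes called in that comparison is given. The methods name biological replicates and, for the pituitary, a pool of mice for each independent replicate. For the other tissues nothing in the labels says which animals each replicate came from. The p-values measure the spread between these libraries. In bulk RNA, fewer cells of a type and less RNA per cell cannot be told apart.

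In WT cerebellum 6 of 9 members were called between GFP-positive and GFP-negative cells, against 11.3% of all genes. Igfbp4, Igfbp7 and Igf1r were higher in ECs and Igfbp2, Igfbp5 and Igf2 lower. Without GFP-positive replicate 1, the library with the erythrocyte RNA, 3 were called (Igfbp5, Igfbp7 and Igf1r), and without GFP-negative replicate 2 the count was 4. In WT anterior pituitary 5 of 9 were called (11.3% of all genes), with Igfbp3, Igfbp4 and Igfbp7 higher in ECs and Igfbp2 and Igf1r lower. In WT posterior pituitary 5 of 9 were called (14.5% of all genes), with Igfbp3, Igfbp4, Igfbp7 and Igf2 higher in ECs and Igf1r lower.

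Between WT vascular beds 8 members could be tested in GFP-positive cells, since Igfbp2 was too low. Cerebellar over anterior pituitary ECs gave 4 calls (5.26% of all genes), with Igf1r higher in cerebellum and Igfbp3, Igfbp4 and Igfbp5 lower. The cerebellar over posterior pituitary comparison gave 5 calls (4.4% of all genes), with the same 4 in the same directions and Igfbp7 lower. Both comparisons share the WT cerebellum libraries. Between the pituitary lobes no member was called by edgeR (0.994% of all genes), 4 members had an unadjusted p under 0.05, and DESeq2 (Igfbp6) and limma on log2(TPM + 1) (Igfbp5) called 1 each.

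Beta-catenin stabilization gave no member call by edgeR in sorted ECs. In the cerebellum (0.648% of all genes called) 5 members had an unadjusted p under 0.05, DESeq2 called 4 and limma on TPM 0. Without WT replicate 1, the library with the erythrocyte RNA, the log2 fold change was -4.05 for Igfbp3 and -6.14 for Igf1. Igf1 was at 0 and 0.523 TPM in WT cerebellar ECs, so its change rested on 1 WT library near the floor. Without WT replicate 2 its log2 fold change was 3.18, of the opposite sign. In the anterior pituitary (0.458% of all genes) no member had an unadjusted p under 0.05, and neither other tool called any. The posterior pituitary (1.79% of all genes) had 3 members at an unadjusted p under 0.05 and no call by either other tool. Tests of whether the effect of stabilization differed between beds also called no member by edgeR. For posterior minus anterior pituitary (0.128% of all genes) 1 member had an unadjusted p under 0.05 and the other tools called none. For posterior pituitary minus cerebellum (0.927% of all genes) 3 had one, DESeq2 called 2 and limma 0. Without WT cerebellum replicate 1 the log2 fold change here was 4.65 for Igfbp5 and 8.35 for Igf1. Leaving out 1 library at a time moved that of Igfbp5 between 3.44 and 12.1. That of Igf1 moved between -0.994 and 10.5, with the sign reversed without WT cerebellum replicate 2. With 2 libraries a group the fitted spread between libraries was wide, so that the absence of a call does not show that a gene was unchanged.

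In GFP-negative cells stabilization gave 1 member call by edgeR in cerebellum, Igfbp2 (0.76% of all genes), where DESeq2 called 4 and limma on TPM 1. In the anterior pituitary edgeR called 0 members (0.0408% of all genes), with 2 at an unadjusted p under 0.05 and 1 call each by DESeq2 and limma. In the posterior pituitary it called 0 (0.133% of all genes), with 2 at an unadjusted p under 0.05 and none by the other tools.

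Among RiboTag libraries, WT cortex over choroid plexus bound RNA gave 4 of 9 member calls (29.7% of all genes), all lower in cortex by counts: Igfbp2, Igfbp3, Igfbp7 and Igf2. Bound over input RNA of WT cortex gave 5 (11.6% of all genes), with Igfbp3, Igfbp7 and Igf1r higher in bound and Igfbp2 and Igf2 lower. The same comparison in choroid plexus gave 2 (15.3% of all genes), with Igfbp3 higher and Igfbp2 lower. Stabilization gave 3 calls in cortex bound RNA (6.32% of all genes), 0 in choroid plexus bound RNA (0.852%), 2 in cortex input (11.8%) and 1 in choroid plexus input (0.106%). In choroid plexus bound RNA 3 members had an unadjusted p under 0.05, DESeq2 called 2 and limma on TPM 0. By edgeR the effect of stabilization differed between choroid plexus and cortex bound RNA for 2 members (2.15% of all genes), Igfbp5 and Igfbp3. DESeq2 called 5 there and limma on TPM 1. Those added by DESeq2 were Igfbp4 (log2 fold change 1.66, adjusted p = 0.0365), Igf1 (3.03, 0.0199) and Igf2 (-1.34, 0.00348).

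The scale mattered in the cortex RiboTag libraries. Salmon's effective length of a transcript, by which TPM is divided, differed there between WT and stabilized libraries, so that counts and TPM moved apart. The median log2 difference over all tested genes between stabilized and WT was 0 on the count scale and −0.65 on the log2(TPM + 1) scale in cortex bound RNA. In cortex input it was 0.03 on the former and −0.998 on the latter scale, and for WT cortex over choroid plexus bound RNA 0.01 on the former and 0.74 on the latter. Of 43 member calls between 2 groups, 38 had the same direction of mean TPM. The 5 that did not were Igfbp3 and Igfbp7 in cortex bound, Igfbp2 and Igf2 in cortex input, and Igfbp7 between WT cortex and choroid plexus bound RNA. For these 5 no direction is claimed.

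**Figure D2:**
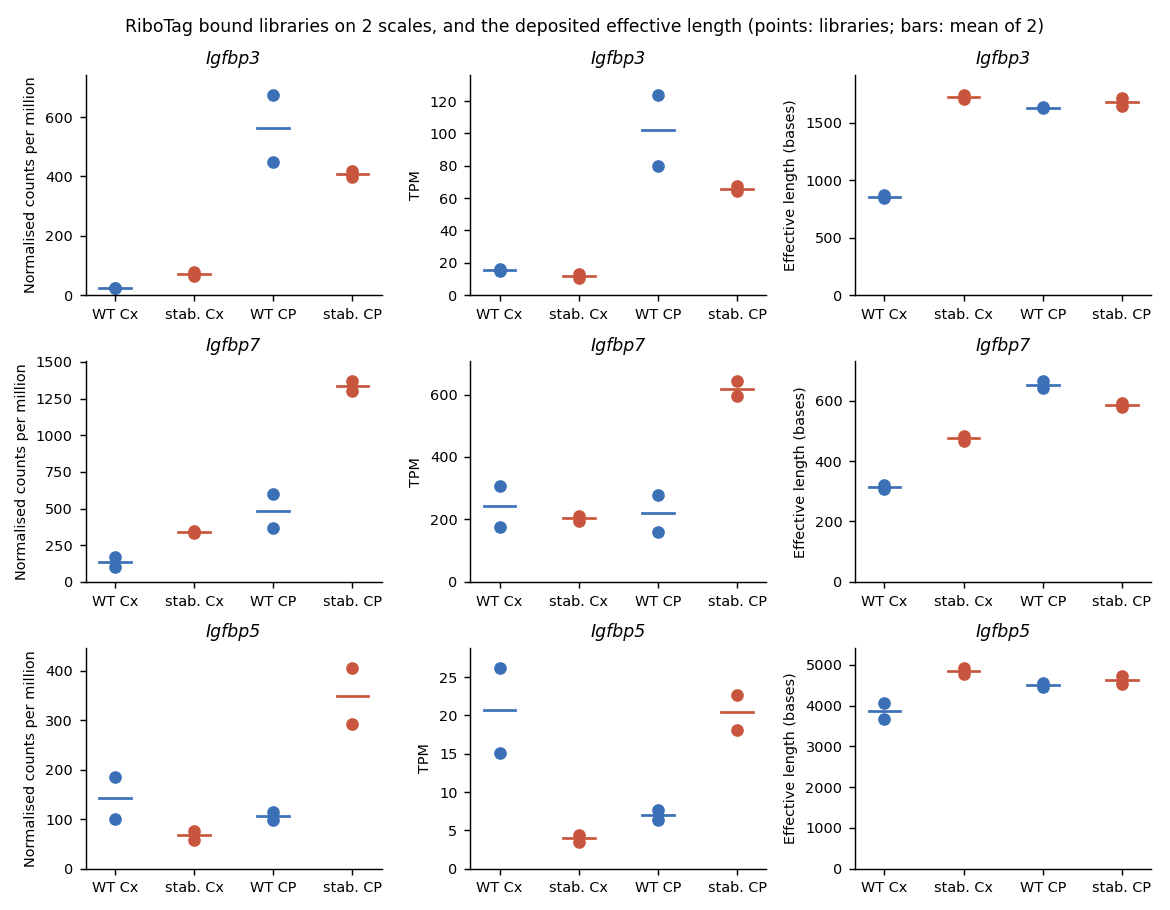
Igfbp3, Igfbp7 and Igfbp5 in the 8 bound RiboTag libraries (Cx cortex, CP choroid plexus; blue WT, red stabilized), as normalised CPM (read counts scaled to library size), as TPM and with the deposited effective length in bases; points are libraries, bars the mean of 2, and all axes start at 0. The effective length of Igfbp3 is 847 and 868 bases in WT cortex and above 1600 bases in the other 3 groups, so its count is higher but its TPM lower in stabilized cortex; Igfbp5 is lower in stabilized than WT cortex and higher in stabilized than WT choroid plexus on both scales.

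Igf1 (GRCm38 chr10:87858265-87937042, plus strand) encodes the growth hormone-responsive ligand and overlaps the antisense gene Igf1os, whose reads it may share. It was low throughout, between 0 and 9.01 TPM in all 40 libraries. WT anterior pituitary ECs were at 1.63 and 0.911 TPM, and stabilized ones at 7.38 and 5.02 TPM. WT posterior pituitary ECs were at 0.374 and 0.578 TPM, and stabilized ones at 5.1002 and 3.21 TPM. The ranges did not overlap in either lobe, and neither difference was called. The summed TPM of 8 microglial markers moved the same way, from 26.3 and 20.2 in WT to 126 and 239 in stabilized libraries of the anterior lobe, and from 51.5 and 37.2 to 257 and 194 in the posterior. Between 1 and 4 of the 8 were at 0 in each of these WT libraries and none in the stabilized ones; their part in the result was not tested. Cerebellar ECs were at 0 and 0.523 TPM in WT mice and 0.00694 and 0 TPM after stabilization. Among GFP-negative cells Igf1 was highest in stabilized posterior pituitary, at 9.01 and 6.203 TPM against 3.32 and 0.144 TPM in WT, and 5.28 TPM or lower in all libraries of the other sorted groups of these cells; no difference between fractions or genotypes was called there.

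Igf1 was the 1 ligand that edgeR called upon stabilization in bound RNA, a call that depended on the scale. It stood at 3.005 and 5.31 TPM in WT and 1.34 and 0.167 in stabilized cortex bound libraries, and fell by 2.52 ± 0.60 (SE) on the log2 scale (edgeR adjusted p = 0.0387). The microglial markers, all 8 of them detected in all 4 libraries, were lower too, at 3344 and 2339 TPM in WT and 953 and 840.1 TPM in stabilized libraries. In the inputs of the same tissue they were at 19.7 to 94.2 TPM; their part in the result was not tested. The call was lost without WT replicate 2 (adjusted p = 0.136) or either stabilized replicate (adjusted p = 0.226 and 0.164), and with the replicate block (adjusted p = 0.0592). It was lost as well with an offset for effective length (log2 fold change -1.64, adjusted p = 0.416), in a fit of these groups alone (0.0581) and on log2(TPM + 1) with limma (0.0689), so that it held in 4 of 11 alternatives. With the length offset Igf2 was the ligand called in cortex bound RNA (log2 fold change 1.99, adjusted p = 0.015). In choroid plexus bound RNA Igf1 was at 3.86 and 3.33 TPM in WT and 2.33 and 5.12 in stabilized libraries, which overlap, and in the 8 inputs of both tissues it was at 2.64 to 5.60 TPM.

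Igf2 (GRCm38 chr7:142650766-142666816, minus strand), the fetal growth ligand, is imprinted. In the GENCODE M21 annotation it overlaps the coding gene Gm49394 and Mir483 on the same strand and its antisense gene Igf2os. It may share reads with any of these. It was the highest of the 9 genes in choroid plexus bound RNA of WT mice, at 497 and 465 TPM, and at 432 and 380.3 TPM after stabilization. The choroid plexus inputs were at 277 and 269 TPM in WT and 263 and 297 in stabilized libraries. In WT choroid plexus, bound RNA was above input in TPM but below it by counts. Leaving out 1 library, the log2 fold change of counts lay between -0.896 and -0.568, and limma on TPM gave 0.813. EdgeR did not call it, and no direction is claimed. Cortex was far lower, with 6.46 and 7.699 TPM in WT bound RNA (log2 fold change -6.52 ± 0.31 (SE), adjusted p = 8.55e-06 for cortex over choroid plexus). The 7 markers of choroid plexus epithelium, which secretes cerebrospinal fluid, summed to 19285 and 20361 TPM in those bound and 34839 and 38164 TPM in those input libraries, and to 16.6 and 3.88 TPM in WT cortex bound RNA. All 7 were detected in the choroid plexus libraries and 2 of 7 were at 0 in each WT cortex bound library; their part in the result was not tested.

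Cortex was low in all 8 libraries. Stabilized bound RNA was at 16.9 and 11.2 TPM, and input at 14.2 and 20.1 TPM in WT and 15.7 and 11.6 TPM in stabilized libraries. Bound RNA was below input in WT (log2 fold change -1.03 ± 0.19 (SE), adjusted p = 0.00235), a call kept in 4 of 12 alternatives. The input counts were called higher after stabilization (log2 fold change 1.003 ± 0.15 (SE), adjusted p = 0.00376), lost without WT replicate 2 (adjusted p = 0.0196, log2 fold change 0.97) or stabilized replicate 1 (0.0173, log2 fold change 0.92), while the TPM ranges overlap.

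In sorted cells Igf2 differed by tissue in which fraction held more. WT cerebellar ECs were at 5.99 and 21.6 TPM and GFP-negative cells at 49.3 and 128 (log2 fold change -3.18 ± 0.84 (SE), adjusted p = 0.0176). In WT posterior pituitary ECs were at 33.8 and 13.1 TPM and GFP-negative cells at 2.39 and 2.45 (log2 fold change 3.24 ± 0.85 (SE), adjusted p = 0.0131). So the EC fraction was the lower one in cerebellum and the higher one in posterior pituitary, with no overlap in either. The cerebellar call was lost without WT GFP-negative replicate 2, a library with 3753 TPM of choroid plexus epithelium markers (adjusted p = 0.511) or WT GFP-positive replicate 1 (0.167), with an offset for effective length (0.149), in a fit of these groups alone (0.0797) and with limma on TPM (0.0569). The posterior pituitary call was lost without GFP-negative replicate 1 (0.0553) and with the length offset (0.0976). WT anterior pituitary ECs were at 7.01 and 9.63 TPM and GFP-negative cells at 9.36 and 8.75 TPM, which overlap.

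After stabilization ECs were at 0.197 and 6.78 TPM in cerebellum, which overlaps WT, and at 1.27 and 5.77 TPM in posterior pituitary, which does not. Neither passed the test (edgeR adjusted p = 0.322 for the former and 0.266 for the latter). The stabilized anterior pituitary ECs were at 8.01 and 1.901 TPM, a range that overlaps that of WT. In cerebellar GFP-negative cells Igf2 was at 18.2 and 10.1 TPM after stabilization against 49.3 and 128 in WT (log2 fold change -2.75 ± 0.61 (SE), edgeR adjusted p = 0.0673), without overlap and without a call by edgeR. DESeq2 called it (adjusted p = 0.00225), as did edgeR with no filter on low counts (1.14e-05). Leaving out 1 library moved the log2 fold change between -3.50 (without WT replicate 1) and -1.11. WT replicate 2, at 128 TPM, is the library with the choroid plexus epithelium markers named above. Their part in this difference was not tested. Pituitary GFP-negative cells were at 2.33 and 3.49 TPM in the stabilized anterior lobe and 1.21 and 0.454 TPM in the stabilized posterior lobe.

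Igf1r (GRCm38 chr7:67952827-68233668, plus strand), the receptor through which both ligands signal, was the 1 member called higher in cerebellar than in pituitary ECs. WT cerebellar ECs were at 99.5 and 77.99 TPM, anterior pituitary ECs at 11.5 and 5.69 and posterior pituitary ECs at 12.1 and 8.91. In normalised CPM cerebellar ECs were at 1949 and 1867, anterior lobe ECs at 109.9 and 95.8 and posterior lobe ECs at 142 and 127. Every cerebellar library was above every pituitary one. By counts Igf1r was 18.6-fold higher in cerebellar than in anterior pituitary ECs (log2 fold change 4.21 ± 0.27 (SE), adjusted p = 1.99e-06) and 14.2-fold higher than in posterior pituitary ECs (log2 fold change 3.83 ± 0.27 (SE), adjusted p = 6.52e-06). On the TPM scale the differences were smaller, with log2 ratios of mean TPM of 3.37 and 3.08. Both calls held in all 11 alternatives tried for each. The summed TPM of 10 mural cell markers was also higher in cerebellar ECs, at 731 and 602, than in anterior (189 and 224) and posterior pituitary ECs (158 and 84.7), with 0 to 2 of the 10 at 0 in each of these libraries; their part in the result was not tested. In WT anterior pituitary replicate 1, 61.3% of the Igf1r TPM came from a retained-intron transcript, Igf1r-206.

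By counts Igf1r was called higher in the EC fraction in cerebellum and lower in it in both pituitary lobes, of which the cerebellar call alone held on the TPM scale. GFP-negative cells were at 7.61 and 5.22 TPM in WT cerebellum (log2 fold change 3.45 ± 0.32 (SE), adjusted p = 1.97e-06), 10.99 and 14.98 in anterior (log2 fold change -1.38 ± 0.29 (SE), adjusted p = 0.00381) and 15.8 and 33.02 in posterior pituitary (log2 fold change -1.52 ± 0.29 (SE), adjusted p = 0.00133). In anterior pituitary the TPM ranges of the fractions overlapped, and that call was lost without GFP-positive replicate 2 (adjusted p = 0.105), with an offset for effective length (log2 fold change -0.42, adjusted p = 0.642) and with limma on TPM (log2 fold change -0.60, adjusted p = 0.558). The posterior call was lost without GFP-negative replicate 2 (adjusted p = 0.0789), with the length offset (0.0859), in a fit of these groups alone (0.113) and with limma on TPM (0.182). The cerebellar call held in all 12 alternatives. In cortex, bound RNA was likewise enriched, at 31.5 and 15.97 TPM against 6.63 and 6.78 in input (log2 fold change 1.27 ± 0.21 (SE), adjusted p = 0.00126), with a log2 fold change of 1.94 without bound replicate 2. Choroid plexus bound RNA was at 14.03 and 8.39 TPM and input at 9.62 and 6.51, which overlap.

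Stabilization did not move Igf1r past the threshold in any EC library set in the main edgeR fits. Stabilized cerebellar ECs were at 98.8 and 105 TPM, anterior pituitary ECs at 6.82 and 6.45 and posterior pituitary ECs at 5.003 and 6.34. The log2 fold changes were 0.30 ± 0.24, 0.26 ± 0.24 and 0.40 ± 0.24 (SE), with edgeR adjusted p = 0.682, 0.877 and 0.482. All 4 stabilized pituitary EC libraries were below both WT cerebellar ones. On the TPM scale the posterior pituitary libraries were lower after stabilization, with no overlap, while in CPM they were at 142 and 127 in WT and 159.6 and 195 in stabilized libraries, so the sign of this small difference depends on the scale. Bound RNA after stabilization was at 35.4 and 29.3 TPM in cortex and 14.7 and 6.97 in choroid plexus, and the inputs at 1.56 and 2.47 TPM in cortex and 7.29 and 8.04 TPM in choroid plexus. Leaving out 1 library moved the cortex bound log2 fold change between 0.47 and 1.24 (without WT replicate 1). In cortex input limma on TPM called Igf1r lower (log2 fold change -1.37, adjusted p = 0.00176), and edgeR did not. GFP-negative cells of stabilized mice were at 12.5 and 3.74 TPM in cerebellum, 6.72 and 6.13 TPM in the anterior lobe and 8.76 and 4.902 TPM in the posterior lobe.

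**Figure D3:**
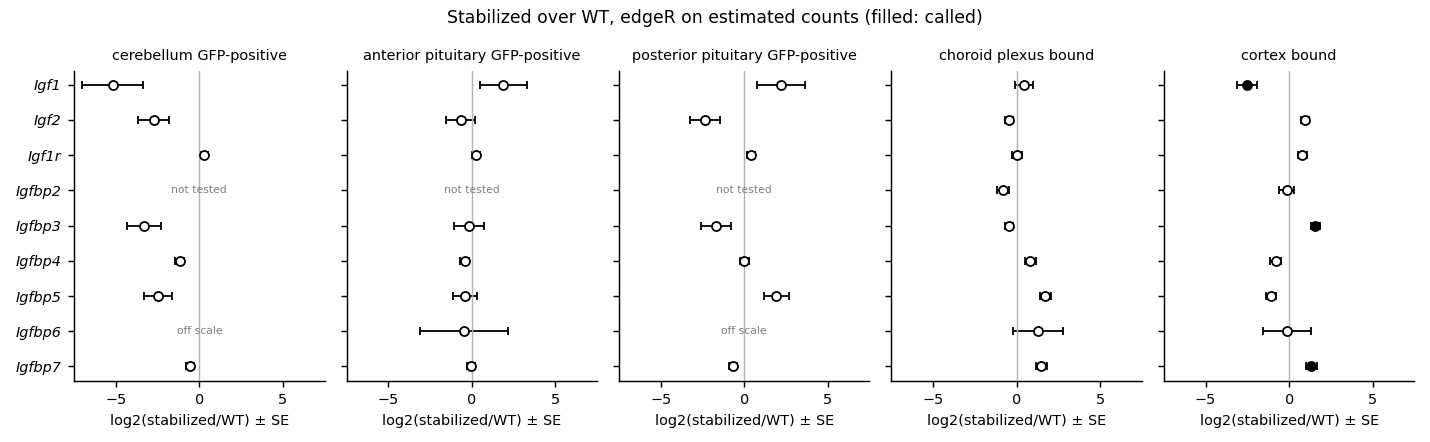
Log2 fold change of stabilized over WT with its standard error for the 9 genes in 3 sets of sorted ECs and 2 sets of bound RiboTag libraries (edgeR, 2 libraries a group); filled points passed an adjusted p under 0.05 and 2-fold, "not tested" is too low a count and "off scale" a fold change beyond the axis from values at or near 0. Filled points occur in cortex bound RNA alone (Igf1, Igfbp3 and Igfbp7), and Igf1r lies near 0 in the sorted ECs.

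At Igf1r chromatin peaks of cerebellar ECs were gained in stabilized posterior pituitary ECs, where the RNA level was not called changed. The promoter was open in all 12 ATAC-seq libraries, with fold enrichments (peak height over the library's own local background) of 7.58 to 10.7. Upstream of the gene, 3 intergenic regions were open in both WT cerebellar libraries and in no WT pituitary library, at 68323, 65353 and 41709 bp before the annotated start, and Igf1r was the protein-coding gene whose start lay nearest to each. Igf1r was the 1 member of 9 with such a cerebellum-only region within its body and 100 kb on each side, as were 19.1% of 22028 coding genes. Its body, at 280842 bp, is the longest of the 9, so its window was the widest here and in the peak counts below. At −65353 bp the fold enrichment was 10.2 and 8.29 in WT and 11.2 and 11.1 in stabilized cerebellar ECs. The same region was a peak in both stabilized posterior pituitary libraries, at 3.47 and 3.66, and in none of the WT ones. At −41709 bp the values were 5.58 and 4.92 in WT cerebellum, 9.09 and 8.66 in stabilized cerebellum, and 4.34 and 3.66 in stabilized posterior pituitary. The region at −68323 bp was a peak in cerebellum alone, at 6.06 and 4.97 in WT and 7.62 and 6.56 in stabilized libraries.

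The sequences of the 2 regions that were open in cerebellar and in stabilized posterior pituitary ECs follow, as 300 bases of the plus strand of GRCm38 (RefSeq) centred on the summit. Capitals mark the summit base and any match to the TCF/LEF letters TTCAAAG or ATCAAAG on either strand, which TCF/LEF factors, the DNA-bound partners of beta-catenin, recognize.
Igf1r −65353 bp, chr7:67887324-67887623: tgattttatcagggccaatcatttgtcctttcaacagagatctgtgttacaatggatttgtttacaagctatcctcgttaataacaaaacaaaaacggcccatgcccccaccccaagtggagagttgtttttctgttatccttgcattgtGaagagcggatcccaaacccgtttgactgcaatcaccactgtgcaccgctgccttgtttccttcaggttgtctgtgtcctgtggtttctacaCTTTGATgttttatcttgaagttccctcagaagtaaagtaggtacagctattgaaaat
Igf1r −41709 bp, chr7:67910968-67911267: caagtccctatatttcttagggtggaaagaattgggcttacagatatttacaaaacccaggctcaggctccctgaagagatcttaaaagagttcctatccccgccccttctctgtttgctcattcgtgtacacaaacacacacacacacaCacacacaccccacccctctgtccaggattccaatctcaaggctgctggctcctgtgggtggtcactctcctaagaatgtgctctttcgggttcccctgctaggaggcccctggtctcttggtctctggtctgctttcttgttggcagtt
The first holds 1 match, CTTTGAT, and the second none. Such a match stood in 11.4% of 66740 regions of the same length over all ATAC-seq peaks, in 20.4% of those gained by stabilization in posterior pituitary and in 5.41% of those kept there. A match describes letters, not binding.

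Peaks gained and lost upon stabilization were counted for all members, a gained peak being present in both stabilized and neither WT library. In posterior pituitary 6 of 9 members had a gained peak within the gene body and 100 kb on each side, against 52.2% of coding genes, and 1 had a lost one (4.87%). In anterior pituitary 4 had a gained peak (27.5%) and 3 a lost one (22.0%). In cerebellum 4 had a gained peak (47.2%) and 3 a lost one (6.67%). Igf1r and Igfbp6 had the most gained regions in posterior pituitary, 7 each, and Igfbp4 had 6. Peaks in these windows were often nearer to the start of another gene, as around Igfbp6, and Igfbp2 and Igfbp5 share theirs, being 5458 bp apart. The number of peaks that passed the fold enrichment and q filter was also higher in stabilized posterior pituitary, at 28927 and 38585 against 21051 and 20634 in WT libraries; its part in these counts was not tested. Regions open in both WT pituitary lobes and not in cerebellum lay near 4 members (15.4% of coding genes), regions of anterior pituitary alone near all 9 (60.3%), and regions of all 3 beds near 5 (78.6%).

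**Figure D4:**
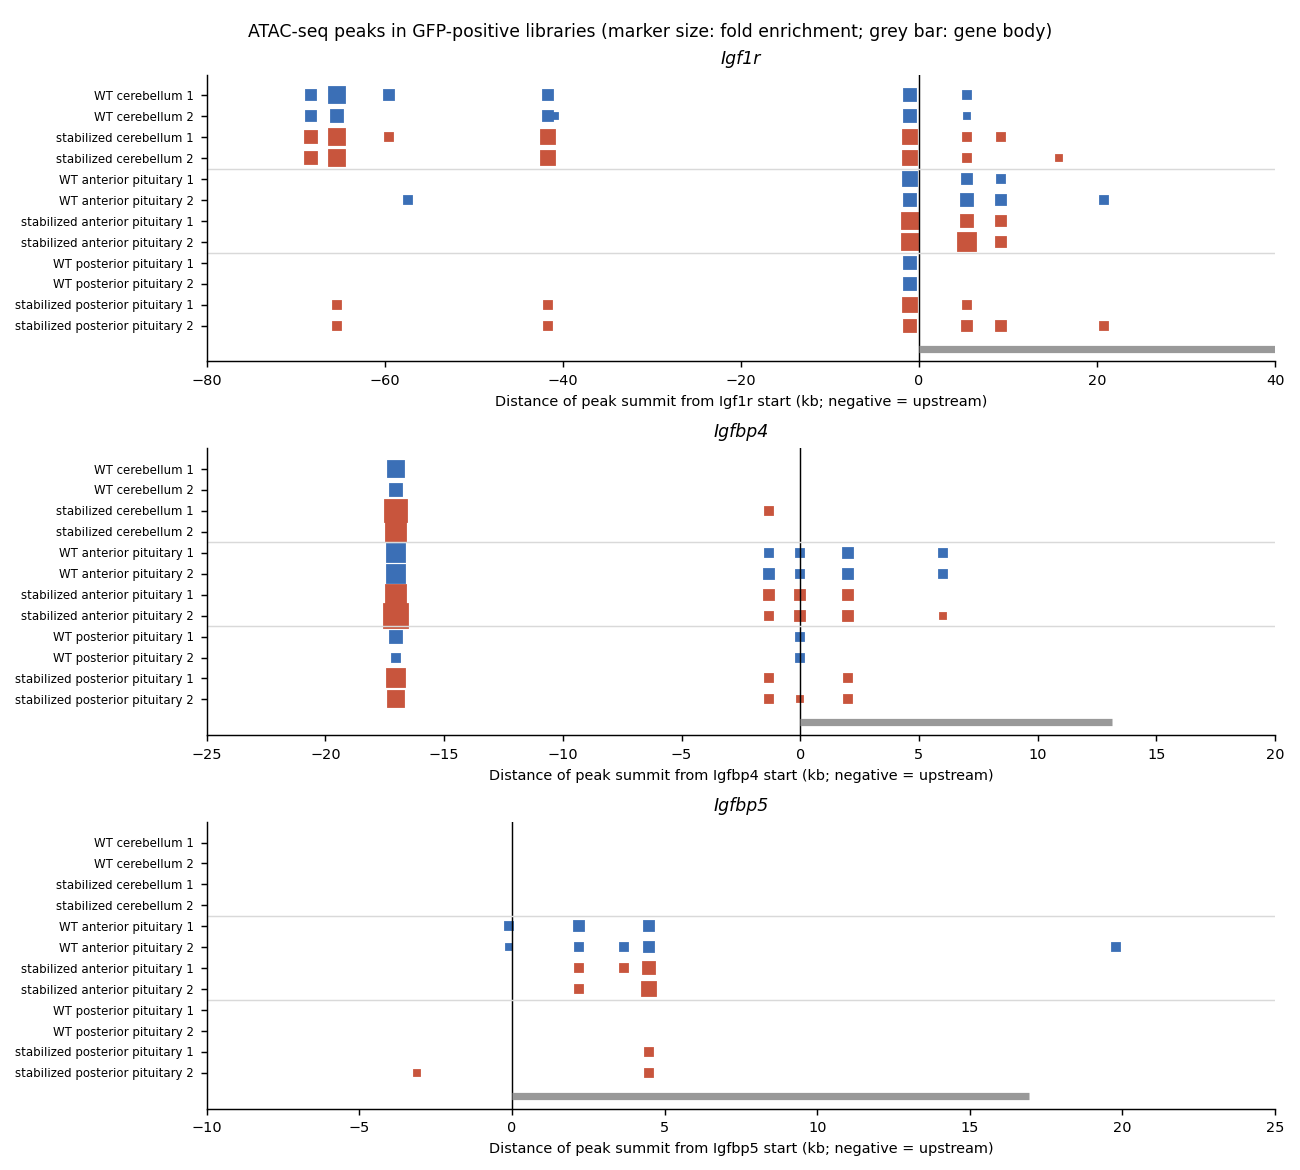
ATAC-seq peaks around Igf1r, Igfbp4 and Igfbp5 in the 12 GFP-positive libraries (rows), by distance of the summit from the gene start in kb with upstream negative; marker size grows with fold enrichment, blue is WT, red stabilized and the grey bar the gene body. The peaks about 65 and 42 kb upstream of Igf1r occur in all 4 cerebellar and both stabilized posterior pituitary libraries, the Igfbp4 start has a peak in both WT libraries of each pituitary lobe and in no cerebellar library, and the Igfbp5 window shows no cerebellar peak.

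Igfbp3 (GRCm38 chr11:7206086-7213923, minus strand), which carries most circulating IGF, was second to Igfbp7 in pituitary ECs and low in cerebellar ones. WT anterior pituitary ECs were at 781 and 837 TPM, posterior pituitary ECs at 809 and 1553 and cerebellar ECs at 4.47 and 23.98. Each pituitary library was above both cerebellar ones. Igfbp3 was 49.2-fold lower in cerebellar than in anterior pituitary ECs (log2 fold change -5.62 ± 1.09 (SE), adjusted p = 0.00774) and 61.7-fold lower than in posterior pituitary ECs (log2 fold change -5.95 ± 1.11 (SE), adjusted p = 0.00677). Both calls held in all 11 alternatives, but the size rested on single libraries. Leaving out 1 library, the log2 fold change against the anterior lobe ranged from -7.44 (without WT cerebellum replicate 2) to -4.86 (without WT cerebellum replicate 1), and against the posterior lobe from -7.76 (without WT cerebellum replicate 2) to -5.03 (without WT posterior pituitary replicate 2). It was largely an EC transcript in the pituitary, since the GFP-negative cells were at 3.62 and 0.6905 TPM in anterior (log2 fold change 8.56 ± 1.67 (SE), adjusted p = 0.00199) and 0.0138 and 1.198 in posterior lobe (log2 fold change 11.27 ± 1.87 (SE), adjusted p = 0.000338). With GFP-negative levels this near 0 the fold changes ranged from 7.89 to 10.7 in anterior and 10.3 to 16.1 in posterior lobe on the log2 scale when 1 library was left out, the highest without GFP-negative replicate 1 in the former and replicate 2 in the latter. In cerebellar GFP-negative cells it was at 1.01 and 3.05 TPM.

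The same held in the choroid plexus, another permeable bed. Bound RNA was at 79.8 and 124 TPM and input at 3.1004 and 2.77 TPM in WT (log2 fold change 4.03 ± 0.24 (SE), adjusted p = 1.37e-06). Cortex bound RNA was lower than choroid plexus bound RNA, at 14.7 and 15.998 TPM (log2 fold change -4.58 ± 0.29 (SE), adjusted p = 1.74e-05), and above cortex input at 3.08 and 3.17 TPM (log2 fold change 1.84 ± 0.23 (SE), adjusted p = 9.44e-05). The Igfbp3 promoter was nonetheless open in all 12 ATAC-seq libraries, with fold enrichments of 4.34 and 4.37 in WT cerebellum, 8.35 and 7.43 in the WT anterior lobe and 5.16 and 6.54 in the WT posterior lobe.

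After stabilization Igfbp3 was lower in posterior pituitary ECs, at 236 and 223 TPM, without overlap with WT and without a call (edgeR adjusted p = 0.453). The anterior lobe was at 888 and 616 TPM, which encloses the WT range, and cerebellar ECs were at 0.171 and 2.58 TPM (log2 fold change -3.30 ± 0.999 (SE), adjusted p = 0.262). The sum of the 10 endothelial markers, none of them at 0, was lower in the posterior lobe too, at 2234 and 1943 TPM in stabilized against 7252 and 5240.1 TPM in WT libraries; its part in the result was not tested. Stabilized GFP-negative cells were at 1.19 TPM or lower in all 6 libraries, and the stabilized inputs at 0.921 and 0.831 TPM in cortex and 2.07 and 1.79 TPM in choroid plexus. In cortex bound RNA counts were higher (log2 fold change 1.58 ± 0.26 (SE), adjusted p = 0.0104; 22.6 and 24.3 CPM in WT and 63.3 and 76.6 in stabilized libraries) but TPM lower (10.4 and 12.7), as shown in the plot of both scales. The call was lost without stabilized replicate 2 (adjusted p = 0.0529) and with an offset for effective length (0.346), and limma on TPM reversed its sign. Stabilized choroid plexus bound RNA was at 67.4 and 64.2 TPM, and the difference between the effects in choroid plexus and cortex passed the test (log2 fold change -2.05 ± 0.36 (SE), adjusted p = 0.0286). That call was lost without either stabilized cortex library (adjusted p = 0.0834 and 0.0797), without WT choroid plexus replicate 2 (0.0592) and without either stabilized choroid plexus library (0.0791 and 0.052). It was lost too with an offset for effective length (0.276) and on the TPM scale with limma (0.815).

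Igfbp4 (GRCm38 chr11:99041244-99054392, plus strand), a binding protein that PAPP-A cleaves to release IGF, was also higher in pituitary ECs. WT anterior pituitary ECs were at 118 and 173 TPM, posterior at 272 and 208 and cerebellar ECs at 34.7 and 18.3. Cerebellar ECs were lower than both lobes without overlap (log2 fold change -2.68 ± 0.29 (SE), adjusted p = 7.96e-05 against the anterior and log2 fold change -2.89 ± 0.29 (SE), adjusted p = 7.44e-05 against the posterior lobe), and both calls held in all 11 alternatives. In each tissue the EC fraction was higher than the GFP-negative cells, which were at 2.74 and 10.5 TPM in WT cerebellum (log2 fold change 1.46 ± 0.41 (SE), adjusted p = 0.0235), 7.43 and 8.56 in anterior (log2 fold change 3.30 ± 0.44 (SE), adjusted p = 5.83e-05) and 33.8 and 56.02 in posterior pituitary (log2 fold change 2.39 ± 0.42 (SE), adjusted p = 0.000564). The cerebellar call was lost without replicate 1 of the GFP-negative (adjusted p = 0.226) or the GFP-positive cells (0.0928), with an offset for effective length (0.17), in a fit of these groups alone (0.0684) and with limma on TPM (0.0529). Leaving out 1 library moved its log2 fold change between 1.13 (without GFP-negative replicate 1) and 2.12 (without GFP-negative replicate 2), and that of the posterior lobe up to 3.07 (without GFP-negative replicate 1).

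Cerebellar ECs with stabilized beta-catenin were at 6.11 and 4.88 TPM, without overlap with WT. By edgeR on counts the difference did not reach the threshold (log2 fold change -1.17 ± 0.27 (SE), adjusted p = 0.0915), and it was larger on the TPM scale, with a log2 ratio of mean TPM of -2.27. It was called with an offset for effective length (log2 fold change -2.18, adjusted p = 0.02), by DESeq2 (-1.14, 0.00155) and with no filter on low counts (-1.16, 0.0105). A processed transcript without a coding frame, Igfbp4-203, took 47.6% to 73.8% of the Igfbp4 TPM in the 4 anterior pituitary EC libraries, 54.3% and 47.2% in WT cerebellar and 0% in both stabilized cerebellar EC libraries. Stabilized pituitary ECs were at 179.8 and 189 TPM in the anterior and 182 and 124 TPM in the posterior lobe. The GFP-negative cells of stabilized mice ranged from 2.82 to 32.8 TPM. In choroid plexus bound RNA Igfbp4 was at 33.5 and 46.1 TPM in WT and 66.96 and 69.4 in stabilized libraries (log2 fold change 0.80 ± 0.33 (SE), adjusted p = 0.324), and in cortex bound RNA at 30.4 and 19.8 TPM in WT and 12.2 and 10.1 TPM after stabilization (log2 fold change -0.80 ± 0.33 (SE), adjusted p = 0.188). The directions were opposite, with no overlap in either tissue, and neither passed. The difference between these effects was not called in the main edgeR fit. DESeq2 called it (log2 fold change 1.66, adjusted p = 0.0365), as did edgeR with no filter on low counts (1.62, 0.00894). The 8 inputs lay between 3.33 and 35.0 TPM.

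The Igfbp4 start carried an ATAC-seq peak in WT anterior (3.17 and 4.34 fold) and posterior pituitary ECs (3.36 and 4.53 fold) and in none of the 4 cerebellar libraries. In stabilized anterior pituitary it was at 5.32 and 5.75 fold, and in stabilized posterior pituitary it was a peak in 1 library of 2. Its RefSeq promoter, 250 bases before and 50 after the start on GRCm38.p6, plus strand, is shown as the one member promoter open in both WT lobes and closed in cerebellum by these peak lists, with the start base in capitals.
Igfbp4 promoter, chr11:99040994-99041293: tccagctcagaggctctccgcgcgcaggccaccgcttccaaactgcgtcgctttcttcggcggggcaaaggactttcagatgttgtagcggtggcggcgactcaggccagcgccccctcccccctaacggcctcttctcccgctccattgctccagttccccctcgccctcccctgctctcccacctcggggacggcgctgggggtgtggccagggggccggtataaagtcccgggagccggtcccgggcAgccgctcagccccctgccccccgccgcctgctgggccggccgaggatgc
It is 71.3% G and C and holds no TCF/LEF letters, which stood in 8.65% of 32851 RefSeq promoters. A second region of the gene body, 2031 bp after the start, was a peak in both anterior pituitary genotypes and gained in stabilized posterior pituitary (3.91 and 4.104 fold).

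Igfbp5 (GRCm38 chr1:72857932-72874884, minus strand), which binds extracellular matrix, was higher in pituitary than in cerebellar ECs. It was also higher in anterior than in posterior lobe ECs, without a call in the main edgeR fit. WT anterior pituitary ECs were at 192 and 226 TPM, posterior at 40.9 and 21.6 and cerebellar ECs at 0.565 and 0.684. The 3 ranges did not overlap. Cerebellar ECs were lower than the anterior (log2 fold change -8.60 ± 1.02 (SE), adjusted p = 0.000185) and the posterior lobe (log2 fold change -5.34 ± 0.88 (SE), adjusted p = 0.00309), and both calls held in all 11 alternatives. The difference between the lobes did not pass by edgeR (log2 fold change 3.27 ± 0.80 (SE), adjusted p = 0.0874), but did in a fit of these groups alone (0.0155), with no filter on low counts (7.77e-23), without WT posterior pituitary replicate 1 (0.032) and with limma on TPM (0.024). Unlike Igfbp3, Igfbp5 was also high in the GFP-negative cells, at 129 and 148 TPM in the anterior lobe and 47.4 and 72.8 TPM in the posterior lobe, and in cerebellum those cells, at 5.64 and 13.6 TPM, were above the ECs (log2 fold change -4.41 ± 0.91 (SE), adjusted p = 0.00324; from -5.001 without GFP-negative replicate 1 to -3.06 without GFP-negative replicate 2).

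Stabilized posterior pituitary ECs were above WT ones, at 57.98 and 76.4 TPM (291 and 163 CPM in WT and 739 and 987 CPM in stabilized libraries), without overlap and without a call (log2 fold change 1.93 ± 0.76 (SE), edgeR adjusted p = 0.283). With no filter on low counts edgeR called it (log2 fold change 1.96, adjusted p = 6.22e-09). The fold change was nearly the same there, so that call rests on the setting. Those of the anterior lobe were at 235 and 161 TPM, which encloses the WT range, and cerebellar ECs at 0.254 and 0. GFP-negative cells of stabilized mice were at 10.9 and 14.2 TPM in cerebellum, 179.8 and 102 TPM in the anterior lobe and 54.6 and 28.9 TPM in the posterior lobe.

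In the choroid plexus Igfbp5 was the 1 member that edgeR called upon stabilization, in input RNA. Bound RNA was at 6.34 and 7.64 TPM in WT and 18.1 and 22.7 in stabilized libraries (log2 fold change 1.71 ± 0.33 (SE), adjusted p = 0.0576), and input at 5.11 and 5.71 TPM in WT and 21.9 and 20.6 TPM in stabilized libraries. Neither pair overlapped. By edgeR the bound difference missed the threshold and the input difference passed it (log2 fold change 1.93 ± 0.17 (SE), adjusted p = 0.017). The bound difference was called with the replicate block (adjusted p = 0.028), by DESeq2 (0.000182), in a fit of these groups alone (0.00742) and with no filter on low counts (1.99e-06). The input call was lost without WT replicate 1 (adjusted p = 0.127), WT replicate 2 (0.141) or stabilized replicate 2 (0.0512) and with the replicate block (0.0778), the offset for effective length (0.113) and limma on TPM (0.113). In the inputs the 8 fibroblast markers summed to 35.9 and 44.3 TPM in WT and 66.03 and 58.9 in stabilized libraries, and 10 mural markers to 14.1 and 16.1 TPM in WT and 36.3 and 30.2 TPM in stabilized ones, with none at 0; their part in the result was not tested.

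In cortex bound RNA Igfbp5 was at 15.2 and 26.1 TPM in WT and 3.497 and 4.41 TPM in stabilized libraries (log2 fold change -1.09 ± 0.33 (SE), edgeR adjusted p = 0.0834), and in cortex input at 21.03 and 35.2 TPM in the former and 7.04 and 6.46 TPM in the latter. The bound difference was called by DESeq2 (adjusted p = 0.0194), by limma on TPM (0.0127), with no filter on low counts (0.00479) and without WT replicate 1 (0.00862), and the input difference by limma on TPM (0.000553). The effect of stabilization on bound Igfbp5 RNA differed between the tissues (log2 fold change 2.80 ± 0.46 (SE), adjusted p = 0.0227 for choroid plexus minus cortex). This interaction was lost without stabilized cortex replicate 1 (adjusted p = 0.0727) and with an offset for effective length (0.0513), and held in 13 of 15 alternatives.

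No cerebellar library had a peak within the Igfbp5 body or 100 kb on each side. Its promoter was a peak in both WT anterior pituitary libraries (3.46 and 2.71 fold) and in no other library. A region 4497 bp inside the gene was a peak in anterior pituitary (5.93 and 6.002 fold in WT and 7.74 and 9.38 in stabilized libraries) and was gained in stabilized posterior pituitary ECs (4.53 and 3.26 fold). It was no peak in the WT posterior pituitary libraries, although these held Igfbp5 RNA at the levels given above. Its 300 bases on the plus strand of GRCm38 are shown as the region of the gene that was gained there, with the summit base in capitals, and hold no TCF/LEF letters.
Igfbp5 +4497 bp, chr1:72870237-72870536: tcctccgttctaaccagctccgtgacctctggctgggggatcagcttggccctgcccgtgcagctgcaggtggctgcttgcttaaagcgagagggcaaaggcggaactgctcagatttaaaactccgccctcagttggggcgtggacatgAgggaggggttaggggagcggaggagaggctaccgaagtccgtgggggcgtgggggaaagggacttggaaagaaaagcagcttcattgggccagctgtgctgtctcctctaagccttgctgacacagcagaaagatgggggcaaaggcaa

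Igfbp7 (GRCm38 chr5:77349240-77408041, minus strand), the matrix-bound EC product, marked the EC fraction in all 3 sorted tissues. ECs were at 1012 and 1468 TPM in WT cerebellum, 1081 and 1283 TPM in the anterior lobe and 3563 and 2099 TPM in the posterior lobe. GFP-negative cells lay between 6.86 and 60.7 TPM in the 6 WT libraries. The fractions never overlapped, with log2 fold changes of 4.62 ± 0.72, 4.43 ± 0.72 and 6.69 ± 0.80 (SE) and edgeR adjusted p = 0.000301, 0.000378 and 1.22e-05, and each call held in all 12 alternatives. Leaving out 1 library moved the cerebellar value up to 5.61 (without GFP-negative replicate 2) and the posterior one between 6.08 and 8.46 (without GFP-negative replicate 2 and replicate 1). Cortex bound RNA was enriched in the same way, at 307 and 177 TPM against 10.5 and 10.5 in input (log2 fold change 4.03 ± 0.30 (SE), adjusted p = 1.89e-06; 4.69 without bound replicate 2). In choroid plexus the WT bound libraries were at 159 and 279.7 TPM and input at 51.6 and 53.9, a difference under 2-fold by counts (log2 fold change 0.86 ± 0.26 (SE), adjusted p = 0.0371) that edgeR did not call although the TPM ranges did not overlap. The log2 ratio of mean TPM was 2.06, and limma on log2(TPM + 1) called it (1.98, adjusted p = 0.000785), as did edgeR without WT bound replicate 1 (1.05, adjusted p = 0.0296).

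Between WT beds Igfbp7 was lower in cerebellar than in posterior pituitary ECs (log2 fold change -1.05 ± 0.25 (SE), adjusted p = 0.0315). The call was lost without WT cerebellum replicate 1 (adjusted p = 0.238), without WT posterior pituitary replicate 1 (0.0561), in a fit of these groups alone (0.288), with an offset for effective length (0.38) and on the TPM scale with limma (0.153). After stabilization ECs were at 902 and 899 TPM in cerebellum, 1830.2 and 1360.4 TPM in the anterior lobe and 1263 and 1473 TPM in the posterior lobe. The posterior libraries were lower than WT without overlap and without a call (log2 fold change -0.67 ± 0.25 (SE), adjusted p = 0.258), beside the lower endothelial marker sum given above. The promoter was open in all 12 ATAC-seq libraries, at 7.76 to 13.7 fold. Stabilized GFP-negative cells lay below 100 TPM in all 6 libraries.

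In stabilized choroid plexus bound RNA Igfbp7 was at 642 and 597 TPM, above both WT libraries, without passing edgeR's test (log2 fold change 1.47 ± 0.33 (SE), adjusted p = 0.0938). It passed with DESeq2 (1.495, adjusted p = 0.000359), in a fit of these groups alone (1.55, 0.0237) and with no filter on low counts (1.49, 9.49e-05), and not with limma on TPM. Endothelial markers summed to 496 and 613 TPM in WT and 1211 and 818 in stabilized libraries there; their part in the result was not tested. In cortex bound RNA the WT range enclosed the stabilized libraries on the TPM scale, at 196 and 212, while counts were higher in the stabilized ones (log2 fold change 1.33 ± 0.33 (SE), adjusted p = 0.0454). That call was lost without WT replicate 2 (adjusted p = 0.0718), without either stabilized replicate (0.141 and 0.126), with the replicate block (0.063) and with an offset for effective length (0.285), and limma on TPM reversed its sign. WT cortex against choroid plexus bound RNA was called lower by counts (log2 fold change -1.84 ± 0.34 (SE), adjusted p = 0.00294) with TPM ranges that overlap, a call lost with the length offset (0.0769) and of the opposite sign with limma on TPM. Stabilized inputs were at 3.63 and 4.67 TPM in cortex and 65.4 and 64.9 in choroid plexus.

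Igfbp2 (GRCm38 chr1:72824503-72852474, plus strand), a brain and cerebrospinal fluid binding protein, was nearly absent from sorted ECs, at 0 to 1.84 TPM in the 12 GFP-positive libraries. Choroid plexus held the most, with 259 and 258 TPM in WT input and 152 and 151 in bound RNA (log2 fold change -1.67 ± 0.31 (SE), adjusted p = 0.00222), and after stabilization 213 and 252 TPM in input and 100.5 and 90.9 TPM in bound RNA. Bound RNA was thus below input in both genotypes, and the WT call was lost with limma on TPM (0.0552). Cortex was at 3.61 and 4.06 TPM in WT bound (log2 fold change -7.02 ± 0.49 (SE), adjusted p = 2.4e-05 against choroid plexus) and 7.09 and 5.83 in input RNA (log2 fold change -1.58 ± 0.35 (SE), adjusted p = 0.00777 for bound over input). The latter call was lost without input replicate 1 (adjusted p = 0.238) or either bound replicate (0.106 and 0.0726), with an offset for effective length (0.161), in a fit of these groups alone (0.222) and with limma on TPM (0.163). In stabilized cortex Igfbp2 was at 0.819 and 2.22 TPM in bound and 5.62 and 4.01 in input RNA; the input counts gave a call (log2 fold change 1.17 ± 0.21 (SE), adjusted p = 0.00691) against the direction of TPM, lost without WT replicate 2, where the change was under 2-fold (log2 fold change 0.88).

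Igfbp2 was the 1 member that edgeR called in GFP-negative cells upon stabilization; in cerebellum DESeq2 also called Igfbp3 (adjusted p = 0.0249), Igfbp6 (0.0164) and Igf2 (0.00225). In cerebellum it was at 8.98 and 57.9 TPM in WT and 0 and 0.0457 TPM in stabilized libraries, or 369 and 2946 estimated reads against 0 and 1. Pooled over libraries and scaled by depth the ratio of WT to stabilized was 1525, with a 95% exact interval of 273 to 60245 that covers counting error only (edgeR adjusted p = 0.0128); a fitted fold change against so few reads depends on the prior count and is not given. The 7 choroid plexus epithelium markers summed to 2.03 and 3753 TPM in the WT and 0.741 and 104 in the stabilized libraries, and their part in the result was not tested. Without WT replicate 2, the library with the high sum, the adjusted p was 0.0833, and the call was also lost in a fit of these groups alone (0.426) and with limma on TPM (0.0676). Against the ECs of WT cerebellum (9 reads in all) the GFP-negative cells held 329-fold more, with an interval of 173 to 719 (edgeR adjusted p = 0.0287), a call lost without GFP-negative replicate 2 (adjusted p = 0.258) or GFP-positive replicate 1 (0.155) and with an offset for effective length (0.0574). WT anterior pituitary GFP-negative cells were at 3.84 and 8.95 TPM with 1 read in the ECs, a ratio of 471 with an interval of 84.0 to 18622 (edgeR adjusted p = 0.0354), lost without GFP-negative replicate 2 (0.0567) or either GFP-positive replicate (0.171 and 0.0983), with the length offset (0.0589) and in a fit of these groups alone (0.0616). The GFP-negative cells of stabilized anterior pituitary were at 7.12 and 4.03 TPM, and those of posterior pituitary at 5.45 and 3.21 TPM in WT and 2.26 and 1.82 TPM in stabilized mice.

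Igfbp6 (GRCm38 chr15:102144362-102149511, plus strand), which prefers IGF2, was low throughout and near the floor in sorted cells. It was highest in cortex input, at 10.6 and 6.38 TPM in WT and 4.18 and 7.33 in stabilized libraries. In sorted cells it reached at most 3.09 TPM, in a WT anterior pituitary EC library, and it was at 0 in both WT cerebellar and both WT posterior pituitary EC libraries. By edgeR no comparison called it. DESeq2 called it in 6 comparisons and limma on TPM in 5 of these: it was lower in WT cerebellar than anterior pituitary ECs (DESeq2 adjusted p = 0.0249, limma 0.0322), lower in WT cerebellar ECs than in their GFP-negative cells (0.00305 and 0.00167), higher in WT anterior pituitary ECs than in their GFP-negative cells (0.0202 and 0.000903), and after stabilization lower in cerebellar (0.0164 and 0.0419) and higher in anterior pituitary GFP-negative cells (0.032 and 0.0337). The sixth, by DESeq2 alone, was higher in WT anterior than posterior pituitary ECs (0.0486). These calls set levels of at most 3.09 TPM against levels at or near 0. Bound RNA was at 0.196 to 5.70 TPM and choroid plexus input at 1.48 to 2.94 TPM.

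Of 26 other genes of the IGF axis (receptors, substrates, adaptors, proteases and IGF2 RNA-binding proteins), 21 could be tested in sorted ECs. Grb14, an adaptor that inhibits insulin receptor signaling, was the 1 gene that edgeR called upon stabilization, in anterior (1 of 21, against 0.458% of all genes) and posterior pituitary ECs (1 of 21, against 1.79%). It was at 1.49 and 2.14 TPM in WT and 10.1 and 12.4 TPM in stabilized anterior pituitary ECs (log2 fold change 3.43 ± 0.58 (SE), adjusted p = 0.0211), and at 0 and 0.0688 TPM in WT and 12.4 and 14.7 TPM in stabilized posterior pituitary ECs (edgeR adjusted p = 7.66e-05). In cerebellar ECs it was at 66.7 and 35.5 TPM in WT and 145 and 106 after stabilization, and 0 of 21 genes were called there by edgeR (0.648% of all genes), with 3 at an unadjusted p under 0.05. The posterior pituitary effect was the larger by the tests against the anterior lobe (edgeR adjusted p = 0.0339) and cerebellum (0.00106), from a WT level near 0 at which a fitted fold depends on the prior count. No receptor gene of the list passed upon stabilization in any of the 3 beds. Insr, the insulin receptor, was at 48.8 and 61.3 TPM in WT and 20.4 and 17.04 TPM in stabilized posterior pituitary ECs.

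Between WT beds the same list gave 2 calls of 21 against the anterior lobe (5.26% of all genes), 4 of 21 against the posterior lobe (4.4%) and 1 of 21 between the lobes (0.994%). One gene was higher in cerebellar than anterior pituitary ECs, Grb14 (log2 fold change 6.18 ± 0.65 (SE), adjusted p = 7.46e-05), and 1 was lower, H19, the imprinted neighbour of Igf2 (log2 fold change -5.68 ± 1.05 (SE), adjusted p = 0.00699). H19 was at 0.908 and 1.36 TPM in WT cerebellar ECs, 33.8 and 55.9 TPM in the anterior lobe and 27.2 and 41.2 TPM in the posterior lobe. Against the posterior lobe Grb14 was higher and 3 genes were lower in cerebellum, H19, Stc1 (log2 fold change -4.15 ± 0.57 (SE), adjusted p = 0.000725), a stanniocalcin that inhibits PAPP-A, and Igf2r (log2 fold change -2.29 ± 0.31 (SE), adjusted p = 0.000708), the receptor that clears IGF2. Igf2r was at 2.31 and 2.81 TPM in cerebellar and 21.4 and 14.8 in posterior pituitary ECs. Between the lobes Grb14 alone was called (edgeR adjusted p = 0.0209), higher in the anterior. In bound RNA 20 genes were tested; stabilization gave 1 call in cortex (6.32% of all genes), Grb10 (log2 fold change 1.21 ± 0.28 (SE), adjusted p = 0.0382), whose TPM ranges overlap, and 0 by edgeR in choroid plexus (0.852% of all genes), with 6 at an unadjusted p under 0.05. WT cortex over choroid plexus bound RNA gave calls for 6 of 20, a share close to the 29.7% of all genes called there, with Irs4 and Htra1 higher and Igf2r, Grb10, Irs1 and Grb14 lower.

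The genes most like each member in pattern over the 12 groups of sorted cells were taken by Pearson's r of log2(mean TPM + 1) among 8963 genes. Igfbp3 ran closest to Tbxa2r (0.992), Serpina3h (0.991) and Plvap (0.991), the last a marker of fenestrated vessels. Igfbp7 ran with Pear1 (0.991), Tmem204 (0.990) and Ets1 (0.987). Igf1r ran with Pcmtd1 (0.958), Ly75 (0.929) and Ddc (0.923), and Igfbp4 with Slc29a1 (0.945), Sema3f (0.938) and H2-Q6 (0.928). For the other members r was lower or rested on low values. Igfbp5 was closest to Dut (0.879), Gng2 and Reps1, Igf2 to Kctd5 (0.904), Wscd1 and AW549877, Igf1 to Gm22748 (0.834), Mmp14 and Atp5l, Igfbp2 to Ubxn11 (0.896), Hsd17b12 and Cbx3-ps7, and Igfbp6 to Gm25099 (0.964), Mrc1 and Cox7b. The 12 points share libraries, depth and the EC against non-EC split.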

How the data were processed

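RNA-seq and ATAC-seq values were used as the authors deposited them. Per the labels and methods, the authors quantified single-end RNA reads with Salmon 0.10.2 against Ensembl 92 transcripts of GRCm38, with sequence, GC and position bias correction, and deposited an estimated count, a TPM value and an effective length per transcript; the library type, strand included, was left to Salmon to detect. For ATAC-seq the authors aligned with Bowtie2 2.3.2, removed duplicates with Picard and called peaks per library with MACS2 2.1.1.20160309; the deposited peak files give fold enrichment and −log10 q-values.

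Estimated counts and TPM were summed per gene, and counts rounded. Genes passing filterByExpr were tested with edgeR 4.0.16 (TMM, quasi-likelihood fit) in R 4.3.3, with all groups of a fraction in one fit (both fractions where they are compared). The test was tried on counts simulated with the fitted spread. For stabilized over WT posterior pituitary ECs it called 2 of 100 genes changed 2-fold and 30 of 100 changed 4-fold. For choroid plexus bound RNA it called 0 of 100 and 30 of 100. Most true changes of these sizes would thus go uncalled. CPM are TMM-normalised. DESeq2 1.42.0 was an alternative, and limma 3.58.1 on log2(TPM + 1), with a pseudocount of 1, was added after the data were seen. Peaks above a fold enrichment of 2 and a −log10 q of 2 were merged over libraries, with 1 bp of overlap, and assigned to genes within 100 kb. Transcript positions are from GENCODE M21, sequences from RefSeq. All members are named, with the other IGF genes called between WT beds or upon stabilization and the 3 genes of highest r for each member. The members and lists were chosen with earlier results of these data known.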

Additional observations from a re-analysis of the deposited data

Results flagged for a closer look

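The effect of beta-catenin stabilization on EC ribosome-bound RNA differed between choroid plexus and cortex for 2 members by the interaction term of the edgeR model over all genes, with 2 libraries in each of the 4 groups. For Igfbp5 the effect in choroid plexus minus that in cortex was 2.80 ± 0.46 (SE) on the log2 scale (adjusted p = 0.0227), with higher values in stabilized choroid plexus and lower values in stabilized cortex in all libraries and on both the count and the TPM scale. For Igfbp3 it was −2.05 ± 0.36 (SE) (adjusted p = 0.0286). The Igfbp3 difference came with an effective length of 847 and 868 bases in WT cortex, which in stabilized cortex was 1745 and 1709 bases, and the part of that length in the result was not tested beyond the length offset and TPM alternatives, in both of which the call was lost.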

How the results depend on the processing

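Of 45 member calls, 24 kept their direction and their side of the threshold in every alternative tried for them. Reversals of log2 fold change occurred mainly where effective length or TPM entered. With the length offset, Igf1r in stabilized over WT ECs was −0.44 in anterior and −0.0198 in posterior pituitary, and Igfbp3 in cortex input −0.25. On log2(TPM + 1) with limma, Igf1r was −0.26 in anterior and −0.78 in posterior pituitary ECs, and stabilized over WT gave −0.39 for Igfbp3 and −0.19 for Igfbp7 in cortex bound, −0.37 for Igfbp2, −1.14 for Igfbp3, −1.17 for Igfbp7 and −0.30 for Igf2 in cortex input, and 0.0314 for Igf2 in choroid plexus input; Igfbp7 in WT cortex over choroid plexus was 0.14 and Igf2 in bound over input choroid plexus 0.81. Leaving out 1 library at a time, Igf1 in stabilized over WT cerebellar ECs ranged from −8.34 to 3.18 and its posterior pituitary minus cerebellum effect from −0.994 to 10.5, both reversed without WT cerebellum GFP-positive replicate 2.

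Counts of members called moved as follows. RLE normalization gave 1 in cortex input. Without a filter on low counts, stabilization gave 5 in cerebellar and 3 in posterior pituitary ECs, 2 in cerebellar GFP-negative cells, 2 in choroid plexus bound RNA, and for the effects 2 (posterior minus anterior pituitary), 3 (posterior pituitary minus cerebellum) and 4 (choroid plexus minus cortex); WT anterior over posterior pituitary gave 2. The length offset gave 1 in cerebellar ECs, 3 each for GFP-positive over GFP-negative cells of the 3 tissues, 1 in cortex bound, 0 for choroid plexus minus cortex and 0 in choroid plexus input. With only the groups compared, WT anterior over posterior pituitary gave 1, cerebellar GFP-negative cells 0, choroid plexus bound 2 and cortex bound over input 3. DESeq2 gave 4 in cerebellar ECs, 2 for posterior pituitary minus cerebellum, 1 for WT anterior over posterior pituitary, 4 and 1 in cerebellar and anterior pituitary GFP-negative cells, 2 in choroid plexus bound, 5 for choroid plexus minus cortex and 1 in cortex input. Limma on TPM gave 1 for WT anterior over posterior pituitary, 1 in anterior pituitary GFP-negative cells, 1 in cortex bound, 1 for choroid plexus minus cortex, 4 in cortex input and 0 in choroid plexus input. Without the filter, calls were gained at fold changes close to the main fit and far lower adjusted p. Examples are Igfbp3 in stabilized over WT cerebellar ECs (edgeR adjusted p = 4.43e-22) and Igfbp5 between the WT pituitary lobes (7.77e-23). Calls gained in that setting alone are therefore no separate support. The cause of these shifts was not tested.

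Leaving out 1 library gave 0 to 2 members in cerebellar ECs, 0 to 2 for posterior pituitary minus cerebellum, 0 to 1 for WT anterior over posterior pituitary, 3 to 7 and 3 to 5 for the EC fraction in cerebellum and anterior pituitary, 0 to 2 in cerebellar GFP-negative cells, 0 to 5 in cortex bound, 0 to 4 for choroid plexus minus cortex, 3 to 4 for cortex bound over input, 0 to 3 in cortex input and 0 to 1 in choroid plexus input. The highest counts came without WT cerebellum GFP-positive replicate 1 (cerebellar ECs), WT posterior pituitary GFP-positive replicate 1 (WT anterior over posterior pituitary), WT cortex bound replicate 1 (cortex bound) and WT cortex bound replicate 2 (choroid plexus minus cortex), and the lowest without stabilized cortex bound replicate 2 (cortex bound) and replicate 1 (choroid plexus minus cortex). A group left with 1 library was assumed to vary like the others.

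Replicate numbers were not taken to pair the libraries: deviations of same-numbered libraries correlated at −0.199 to 0.0959, and no label ties a number to a shared animal or day. Bound and input RNA, and both sorted fractions, may nonetheless come from shared preparations; blocked by number within a preparation, these comparisons kept their counts of members. The replicate block gave 1 member in cortex bound, 1 in choroid plexus bound and 0 in choroid plexus input, and the same counts as without it elsewhere.

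For ATAC-seq, a stricter threshold (fold enrichment 4, −log10 q 5) gave 1 member with a lost peak in cerebellum and 0 in anterior pituitary. Windows of 10 kb gave 2 gained and 1 lost in cerebellum, 2 gained and 1 lost in anterior and 0 lost in posterior pituitary. Without replicate 2 or replicate 1, anterior pituitary had 5 to 7 members with a gained and 8 with a lost peak, and posterior pituitary 1 to 3 with a lost peak. Of the 18 alternative lists of like genes, 9 differed from those named.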

Other observations

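Between sorted fractions of WT mice, 4 of the 22 other IGF axis genes tested had the same call in all 3 tissues. They were chosen after their values were seen. Of all tested genes 11.3% were called in cerebellum, 11.3% in the anterior and 14.5% in the posterior lobe. The share of all genes called alike in all 3 tissues was not counted. Cd93, an EC surface receptor that binds IGFBP7, was higher in ECs, with mean levels of 73.3 TPM in cerebellar, 82.0 TPM in anterior and 146 TPM in posterior pituitary ECs and at most 0.597 TPM in GFP-negative cells (edgeR adjusted p at most 0.000656, n = 2 libraries a group). Insr was higher in ECs as well, with log2 fold changes of 1.999 ± 0.407 in cerebellum, 2.99 ± 0.42 in the anterior lobe and 2.76 ± 0.42 in the posterior lobe (SE), so that the insulin receptor was called higher in ECs in each tissue, whereas Igf1r was called higher in cerebellum and, by counts, lower in both lobes. The pituitary calls of Igf1r were lost with an offset for effective length (adjusted p = 0.642 in the anterior and 0.0859 in the posterior lobe) and with limma on TPM (0.558 and 0.182). Grb10, an adaptor that dampens both receptors, was higher in ECs and Irs2, a substrate of both, was lower, at 0.267 TPM on average in cerebellar ECs against 6.74 TPM in GFP-negative cells. TPM ranges of the fractions did not overlap for any of these 4 genes in any of the 3 tissues. The genes were picked for being called, and the share of all genes without overlap was not counted.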
